A study of Saccharomyces cerevisiae with 12 samples.

Results

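The transcripts described here encode the fatty acid beta-oxidation system of the yeast peroxisome. The set is 10 genes, POX1, FOX2, POT1, ECI1, DCI1, SPS19, FAA2, PXA1, PXA2 and TES1, out of 6645 genes in the deposited table. They were chosen by name for their function, with earlier results of these data known. Each was found in the table as 1 row. The cells were Saccharomyces cerevisiae of the haploid wild-type background BY4741 (leu2Δ3 his3Δ1 met15Δ0 ura3-0) carrying a plasmid for Grx1-roGFP2, a fusion of a glutaredoxin with a redox-sensitive fluorescent protein that reports the glutathione redox state of the cytosol. Cultures in a glucose medium with casein amino acids were aged for 48 or 72 hr, dead cells were gated out with propidium iodide, and living cells were sorted by the ratio of the sensor's 2 excitation peaks, which separated reduced from oxidized cells. Each of the 4 groups, oxidized and reduced at 48 hr and oxidized and reduced at 72 hr, was sequenced as 3 libraries. All groups carried the same strain, plasmid and medium, so that no group without the sensor or without sorting was compared.

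In Saccharomyces cerevisiae, beta-oxidation takes place only in peroxisomes. Long-chain fatty acids enter as coenzyme A esters through the Pxa1-Pxa2 transporter, medium-chain acids are activated inside by Faa2, and each turn of the spiral is run by the oxidase Pox1, the multifunctional enzyme Fox2 and the thiolase Pot1, with Eci1, Dci1 and Sps19 as auxiliary enzymes for unsaturated chains and Tes1 as a thioesterase. The genes are known to be held down by glucose and switched on by fatty acids such as oleate, through the Oaf1-Pip2 factor, which binds the oleate response element, and through Adr1.

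The oleate response element was searched as CGGNNNTNANNNNNNNNNCCG and with up to 3 further N before the last CCG, on both strands of the 500 bases before each start codon in the sacCer3 sequence. At least 1 match was found for 9 of the 10 genes (11 matches), against 113 of 6002 upstream windows (1.88%). The factor that binds the element is already known to act on these genes, so this share describes them and is no test. PXA1 had no match in this window. The matches lay between 108 and 312 bases before the start codon, and 4 other genes, the divergent neighbours CHC1, BNR1, NNT1 and SPS18, shared a match with POX1, POT1, ECI1 and SPS19 respectively. The Adr1 core TTGGNG was in 9 of the 10 windows, but 51.4% of all windows held it. PXA2 and TES1 carry the element and did not pass the test at either age, and FOX2 carries it and was too low to test. Printed below are a match from each of the 6 genes lower in oxidized cells at 48 hr, then that of PXA2 and that of PIP2, which encodes a subunit of the factor itself. Each is written 5′ to 3′ on the strand named, with 10 bases on either side and the fixed letters of the element in capitals.
POX1, chrVII:107873-107915, plus strand: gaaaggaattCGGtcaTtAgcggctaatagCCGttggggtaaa
POT1, chrIX:41600-41642, minus strand: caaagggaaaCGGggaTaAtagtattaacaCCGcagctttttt
ECI1, chrXII:707181-707223, minus strand: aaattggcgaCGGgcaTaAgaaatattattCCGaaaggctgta
DCI1, chrXV:675276-675319, minus strand: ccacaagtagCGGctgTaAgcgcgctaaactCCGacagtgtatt
SPS19, chrXIV:259402-259445, plus strand: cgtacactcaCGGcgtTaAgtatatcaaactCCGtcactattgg
FAA2, chrV:184345-184387, minus strand: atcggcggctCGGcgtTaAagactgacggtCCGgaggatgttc
PXA2, chrXI:89025-89068, minus strand: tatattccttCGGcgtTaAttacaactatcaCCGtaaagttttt
PIP2, chrXV:1023338-1023378, minus strand: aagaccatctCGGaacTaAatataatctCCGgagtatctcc
A match describes the letters only, and binding was not measured.

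Levels are given in PPM, parts per 1e+06 of the reads in a library, counted after molecular identifiers had removed PCR copies and in a window of the same length around the 3′ end of every gene. Libraries held 90403 to 241084 reads, so that 1 read was worth 4.15 to 11.1 PPM, and every value came out as whole reads within 0.1. Over all 12 libraries POX1, ECI1, FAA2, POT1 and SPS19 had 346 to 520 reads each, PXA1 174, TES1 127, PXA2 95, DCI1 59 and FOX2 20. Markers of a cells summed to 1017 to 1515 PPM per library and those of α cells to 35.3 to 199 PPM, although the methods give the strain as MATα. Of the genes marked in the genotype, MET17 (the met15 marker) was at 0 reads in all libraries and LEU2 at 0 to 8.7 PPM by group mean, whereas HIS3 was at 190 to 241 PPM and URA3 at 1380 to 1714 PPM. The study's imaging methods name medium without uracil for selection, and whether the URA3 reads come from the plasmid was not tested. The replicates are separate samples by their labels and are described as biological in the study's text.

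The 10 transcripts together were higher in reduced than in oxidized cells at both ages. Their summed level was 575, 625 and 659 PPM in the oxidized libraries at 48 hr and 1750, 1166 and 1880 PPM in the reduced libraries at 48 hr. In 72 hr cells it was 865, 866 and 920 PPM in oxidized and 2195, 2368 and 1967 PPM in reduced cells. The groups did not overlap, and their order was oxidized 48 hr (620 ± 42.0 PPM, SD, n = 3), oxidized 72 hr (883 ± 31.3), reduced 48 hr (1599 ± 380) and reduced 72 hr (2176 ± 201). The last 2 of these lay closest, 1880 against 1967 PPM at their nearest libraries. The lowest reduced library, replicate 2 at 48 hr, had the lowest of the 6 reduced values for POX1, POT1, ECI1, FAA2, PXA1 and TES1. The sum is a description, with no test. PPM are relative to all RNA of a library, and with sorted cells measured in bulk, fewer cells with these transcripts and fewer transcripts per cell cannot be told apart.

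**Figure D1:**
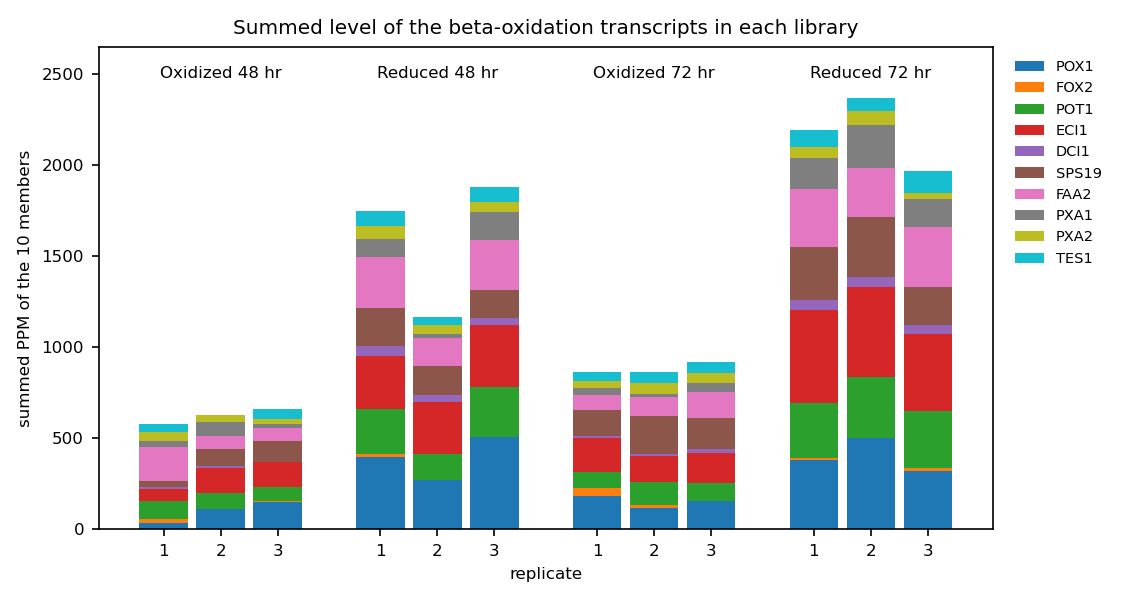
Summed PPM of the 10 beta-oxidation transcripts in each of the 12 libraries, with 1 colour per gene and bars starting at 0. The oxidized libraries reach 575 to 659 PPM at 48 hr and 865 to 920 PPM at 72 hr, below every reduced library (1166 to 2368 PPM).

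For the test, log2(PPM + 10) was fitted with limma over all 4 groups for the 4776 genes whose mean reached 20 PPM, and a gene was called at a Benjamini-Hochberg adjusted p under 0.05. Of the 10 genes, 9 were tested and FOX2 was too low. At 48 hr, 6 of the 10 (POX1, POT1, ECI1, DCI1, SPS19 and FAA2) were lower in oxidized cells and none was higher, where 2.43% of all tested genes were called lower and 1.42% higher. At 72 hr, 6 of the 10 (POX1, POT1, ECI1, DCI1, FAA2 and PXA1) were lower and none was higher, where 4.75% of all tested genes were called lower and 4.86% higher. Without reduced replicate 1 or without reduced replicate 3 at 48 hr, 3 were called at that age. Averaged over both ages, 7 of the 10 were lower, against 6.97% of all tested genes. The median log2 fold change of the 9 tested members, oxidized minus reduced, was -1.21 at 48 hr and -1.41 at 72 hr, and that of all tested genes -0.07 and -0.11. DCI1 passed the filter on low values only through the reduced libraries, so its place among the tested genes is itself a product of their level. The 2 redox comparisons use separate libraries but 1 estimate of the spread. As the set was chosen with earlier results of these data known, its counts beside the shares of all tested genes are a description.

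**Figure D2:**
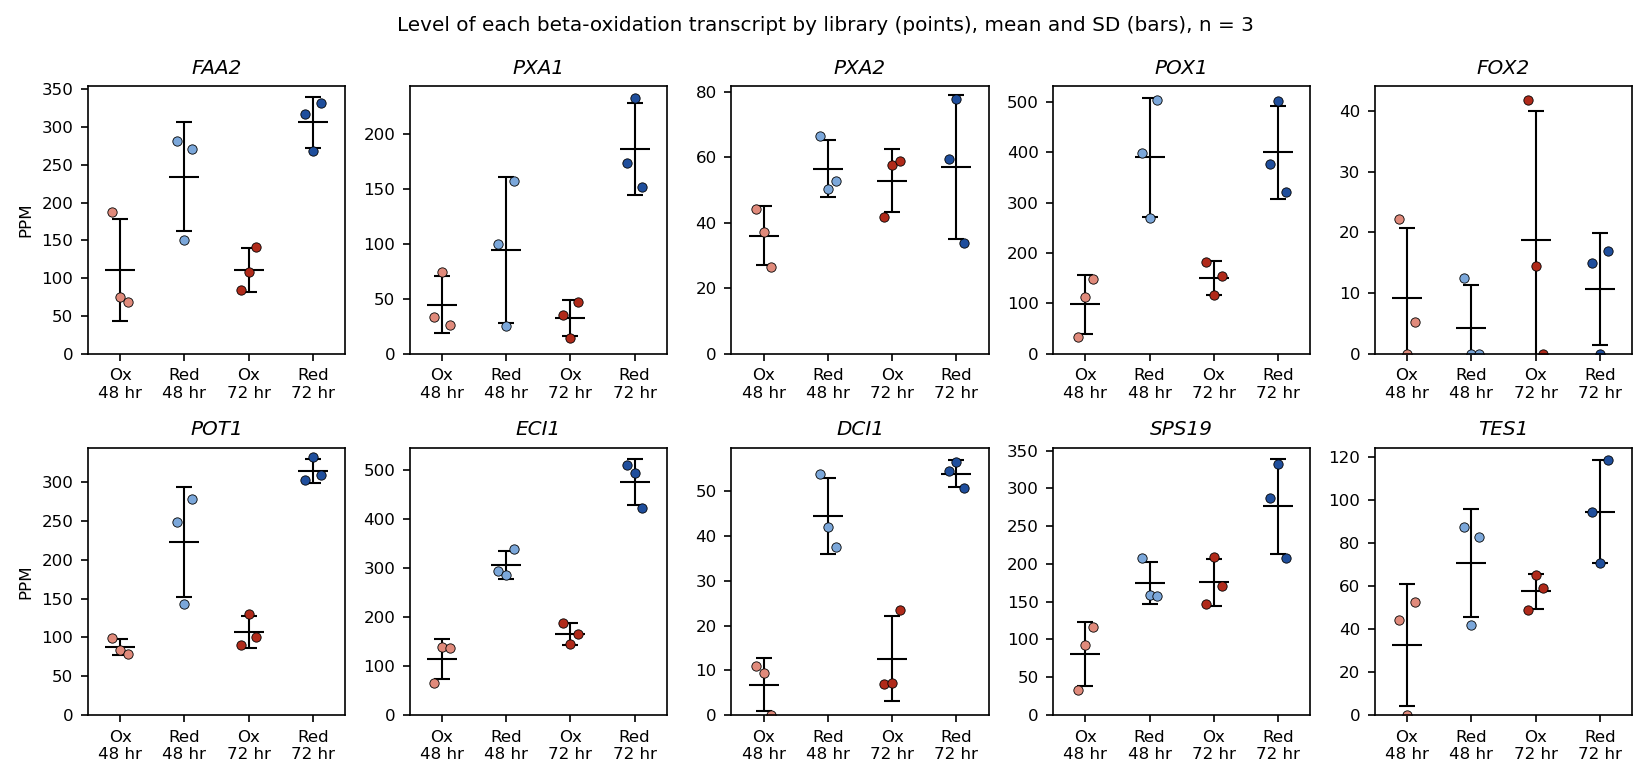
PPM of each beta-oxidation transcript in every library (points), with the mean and SD of each group of 3 (bars) and a separate axis from 0 for each gene. POX1, POT1, ECI1 and DCI1 do not overlap between oxidized and reduced cells at either age, whereas PXA2 overlaps at 72 hr and FOX2 at both ages.

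The core enzymes of the spiral are Pox1, Fox2 and Pot1. POX1, which encodes the acyl-CoA oxidase that starts each turn and releases hydrogen peroxide, lies at chrVII:108158-110404 (coding sequence, as are the positions below). Its level was 33.2, 112 and 148 PPM in oxidized and 398, 269 and 504 PPM in reduced cells at 48 hr. At 72 hr it was 181, 115 and 153 PPM in oxidized and 377, 502 and 321 PPM in reduced cells. Every oxidized library lay below every reduced library of its age. Its log2 fold change was -2.05 (SE 0.30, limma adjusted p = 1.8e-06) at 48 hr and -1.36 (SE 0.30, limma adjusted p = 8.6e-04) at 72 hr. At 48 hr the library at 33.2 PPM rests on 3 reads.

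POT1 (chrIX:40191-41444) encodes the 3-ketoacyl-CoA thiolase that ends each turn and frees acetyl-CoA. It was at 99.6, 83.9 and 79.1 PPM in oxidized and 249, 143 and 278 PPM in reduced cells at 48 hr. In 72 hr cells it was at 90.7, 130 and 100 PPM in oxidized and 303, 332 and 310 PPM in reduced cells. The groups were apart at both ages, most widely at 72 hr, where the reduced libraries differed from each other by less than 30 PPM. The fit gave a log2 fold change of -1.21 (SE 0.27, limma adjusted p = 0.0030) at 48 hr and -1.49 (SE 0.27, limma adjusted p = 5.5e-05) at 72 hr. Without reduced replicate 3 at 48 hr the first did not pass the threshold (limma adjusted p = 0.055). The counting window of POT1 overlaps by 350 bp that of YIL161W on the opposite strand, and whether the counting used strand is not given in the sources used here, so reads of the pair cannot be told apart. YIL161W had 57 reads in all against 358 of POT1, and was itself lower in oxidized cells at 72 hr (-2.28, SE 0.52, limma adjusted p = 0.0014).

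FOX2 (chrXI:454352-457054) encodes the enzyme for the hydratase and dehydrogenase steps between Pox1 and Pot1. It gave 2, 0 and 1 reads in oxidized and 3, 0 and 0 in reduced cells at 48 hr, and 6, 2 and 0 in oxidized and 3, 0 and 3 in reduced cells at 72 hr. These 20 reads spread over all 4 groups with no separation, although its promoter holds 2 matches to the element. The ratio of reduced to oxidized pooled reads was 0.79 at 48 hr (exact 95% interval 0.11 to 5.86) and 0.65 at 72 hr (0.19 to 2.14), where the interval covers counting error only. The interval of FOX2 covered the ratio of POT1 (2.71) at 48 hr, and at 72 hr the interval of FOX2 and that of POT1 (2.95, 2.12 to 4.16) overlapped at their ends. The window of FOX2 overlaps by 127 bp that of RSC4 on the opposite strand, which had 245 reads.

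Eci1, Dci1 and Sps19 serve unsaturated chains. ECI1 (chrXII:706198-707040) encodes the enoyl-CoA isomerase that moves double bonds into the position the spiral can use. It was at 66.4, 140 and 137 PPM in oxidized and 295, 285 and 338 PPM in reduced cells at 48 hr, and at 188, 144 and 165 PPM in oxidized and 511, 495 and 423 PPM in reduced cells at 72 hr. All reduced libraries were above all oxidized libraries, across ages too. The log2 fold change was -1.41 (SE 0.25, limma adjusted p = 7.2e-05) at 48 hr and -1.47 (SE 0.25, limma adjusted p = 1.0e-05) at 72 hr. Its window overlaps by 333 bp that of YLR283W on the opposite strand, which had 73 reads against 520 and did not pass the test (limma adjusted p = 0.97 and 0.81).

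DCI1 (chrXV:674352-675167) encodes a dienoyl-CoA isomerase-like protein related to Eci1. It was at 11.1, 9.32 and 0 PPM in oxidized and 53.9, 42.0 and 37.6 PPM in reduced cells at 48 hr. At 72 hr it was at 6.98, 7.21 and 23.6 PPM in oxidized and 54.6, 56.5 and 50.7 PPM in reduced cells. The groups were apart at both ages, but the oxidized values rest on 2 reads in all at 48 hr and 6 at 72 hr. The ratio of reduced to oxidized pooled reads was 9.03 (exact 95% interval 2.23 to 79.0) and 4.05 (1.65 to 12.0). DCI1 passed the filter on low values only through the reduced libraries. Their means were 44.5 PPM at 48 hr and 54.0 PPM at 72 hr, against 6.79 and 12.6 PPM in oxidized cells. Whether it was tested thus depended on the level compared, and its adjusted p-values are a description. The log2 fold change of DCI1 was -1.76 (SE 0.52, limma adjusted p = 0.039) at 48 hr and -1.58 (SE 0.52, limma adjusted p = 0.040) at 72 hr. With no filter neither passed (limma adjusted p = 0.055 at 48 hr and 0.053 at 72 hr). Both calls depended on the settings, since the first was lost under 7 of 13 alternative settings and the second under 8 of 13, among them a pseudocount of 1 PPM (-3.17, limma adjusted p = 0.090, and -2.23, limma adjusted p = 0.21). For the first these settings include the fits without oxidized replicate 3 or any 1 reduced replicate (-1.42 to -1.85). For the second they include those without any 1 library of its age but oxidized replicate 3 (-1.41 to -1.62).

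SPS19 (chrXIV:259578-260456) encodes the dienoyl-CoA reductase and was first named as a sporulation gene. It was at 33.2, 93.2 and 116 PPM in oxidized and 207, 159 and 158 PPM in reduced cells at 48 hr. In 72 hr cells it was at 147, 209 and 171 PPM in oxidized and 288, 332 and 208 PPM in reduced cells. The groups were apart at 48 hr and overlapped at 72 hr, where 1 reduced library stood level with the highest oxidized one. The fit gave a log2 fold change of -1.15 (SE 0.30, limma adjusted p = 0.014) at 48 hr and -0.61 (SE 0.30, limma adjusted p = 0.23) at 72 hr. Without oxidized replicate 1 at 48 hr, the library at 3 reads, the first was -0.69 (limma adjusted p = 0.23), and without reduced replicate 1 it was -1.03 (limma adjusted p = 0.11). The test of the difference between the ages gave 0.54 (SE 0.42, limma adjusted p = 0.75). The window of SPS19 overlaps by 230 bp that of PSY2 on the opposite strand, which had 109 reads and lay on the same side without passing the test (-1.04, SE 0.53, limma adjusted p = 0.37, and -0.31, SE 0.53, limma adjusted p = 0.80), and reads of this pair cannot be told apart in the overlap.

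A list of 10 meiotic genes, chosen as markers of cells entering meiosis, had a summed level of 88.5 to 174 PPM in oxidized and 195 to 294 PPM in reduced cells at 48 hr, and 137 to 181 and 327 to 452 PPM at 72 hr. Only 3 of the 10 were high enough to test, and 0 of them were called at 48 hr with limma (0 had an unadjusted p under 0.05, against 14.6% of all tested genes). At 72 hr 2 were called lower, against 4.75% of all tested genes, namely IME1, the master regulator of meiotic entry (-1.22, SE 0.34, limma adjusted p = 0.013), and the recombinase gene DMC1 (-1.91, SE 0.44, limma adjusted p = 0.0015). IME2 was also tested and lay on the same side at 72 hr (14.5 PPM on average in oxidized and 52.6 in reduced cells) without being called. HOP1 (15.4 PPM on average in oxidized and 2.4 in reduced cells), NDT80 (18.0 and 14.6), SPS2 (2.3 and 1.7) and SPS4 (2.3 and 0) lay on the other side. These were at too few reads to test. None of the 10 was at 0 in all libraries. The part of these genes in the redox difference of SPS19 and of the other members was not tested.

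Entry and activation are the work of FAA2, PXA1 and PXA2. FAA2 (chrV:184541-186775) encodes the peroxisomal medium-chain acyl-CoA synthetase. It was at 188, 74.6 and 68.5 PPM in oxidized and 282, 151 and 271 PPM in reduced cells at 48 hr. At 72 hr it was at 83.7, 108 and 141 PPM in oxidized and 318, 269 and 332 PPM in reduced cells. The 48 hr groups overlapped by 1 library on each side and the 72 hr groups were apart. The log2 fold change was -1.11 (SE 0.30, limma adjusted p = 0.019) at 48 hr and -1.41 (SE 0.30, limma adjusted p = 4.5e-04) at 72 hr. The 48 hr call was lost without oxidized replicate 2 or 3 or without reduced replicate 1 or 3 (-0.87 to -0.99, limma adjusted p = 0.099 to 0.14), while that at 72 hr held under every alternative run.

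PXA1 and PXA2 encode the subunits of the transporter that brings long-chain acyl-CoA into the peroxisome. PXA1 (chrXVI:273255-275867) was at 33.2, 74.6 and 26.4 PPM in oxidized and 99.6, 25.2 and 158 PPM in reduced cells at 48 hr. In 72 hr cells it was at 34.9, 14.4 and 47.2 PPM in oxidized and 174, 233 and 152 PPM in reduced cells. The 48 hr groups overlapped through reduced replicate 2, with 3 reads, and the 72 hr groups were far apart. Single libraries decided the 48 hr value, which was -1.41 (limma adjusted p = 0.074) without that library, -1.13 (limma adjusted p = 0.23) without oxidized replicate 2, -0.52 (limma adjusted p = 0.67) without oxidized replicate 3 and -0.28 (limma adjusted p = 0.89) without reduced replicate 3. With all libraries its log2 fold change was -0.76 (SE 0.44, limma adjusted p = 0.44) at 48 hr and -2.28 (SE 0.44, limma adjusted p = 1.1e-04) at 72 hr, and the second held under every alternative run (-2.63 to -1.53). The difference between the ages was -1.52 (SE 0.62, unadjusted p = 0.017, limma adjusted p = 0.39) and did not pass. The window of PXA1 overlaps by 106 bp that of NOP53, which had 157 reads and did not pass the test at 72 hr (limma adjusted p = 0.99).

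PXA2 (chrXI:86225-88786) was at 44.2, 37.3 and 26.4 PPM in oxidized and 66.4, 50.3 and 52.6 PPM in reduced cells at 48 hr. At 72 hr it was at 41.9, 57.7 and 58.9 PPM in oxidized and 59.6, 77.8 and 33.8 PPM in reduced cells. The 48 hr groups were apart by little and the 72 hr groups overlapped. The fit gave a log2 fold change of -0.54 (SE 0.42, limma adjusted p = 0.62) at 48 hr and -0.05 (SE 0.42, limma adjusted p = 0.97) at 72 hr, with a 95% interval from -0.90 to 0.80 that did not reach that of PXA1 (-3.16 to -1.41). The difference between these genes was not itself tested. With 4 to 16 reads per library, smaller differences of PXA2 were not detectable. Its window overlaps by 79 bp that of HYM1, which had 49 reads and was itself lower in oxidized cells at 72 hr (-1.56, SE 0.53, limma adjusted p = 0.047).

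TES1 (chrX:467232-468281) encodes the peroxisomal acyl-CoA thioesterase, which releases free fatty acid and coenzyme A. It was at 44.2, 0 and 52.7 PPM in oxidized and 87.1, 42.0 and 82.7 PPM in reduced cells at 48 hr. In 72 hr cells it was at 48.8, 64.9 and 58.9 PPM in oxidized and 94.3, 70.7 and 118 PPM in reduced cells. The 72 hr groups did not overlap and the 48 hr groups did. The log2 fold change was -1.26 (SE 0.47, limma adjusted p = 0.14) at 48 hr and -0.61 (SE 0.47, limma adjusted p = 0.52) at 72 hr. Averaged over both ages it was -0.94 (SE 0.33, limma adjusted p = 0.055). Single libraries decided the 48 hr value, which was -0.41 (limma adjusted p = 0.74) without oxidized replicate 2, the library at 0, and -1.74 (limma adjusted p = 0.042) without oxidized replicate 3.

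**Figure D3:**
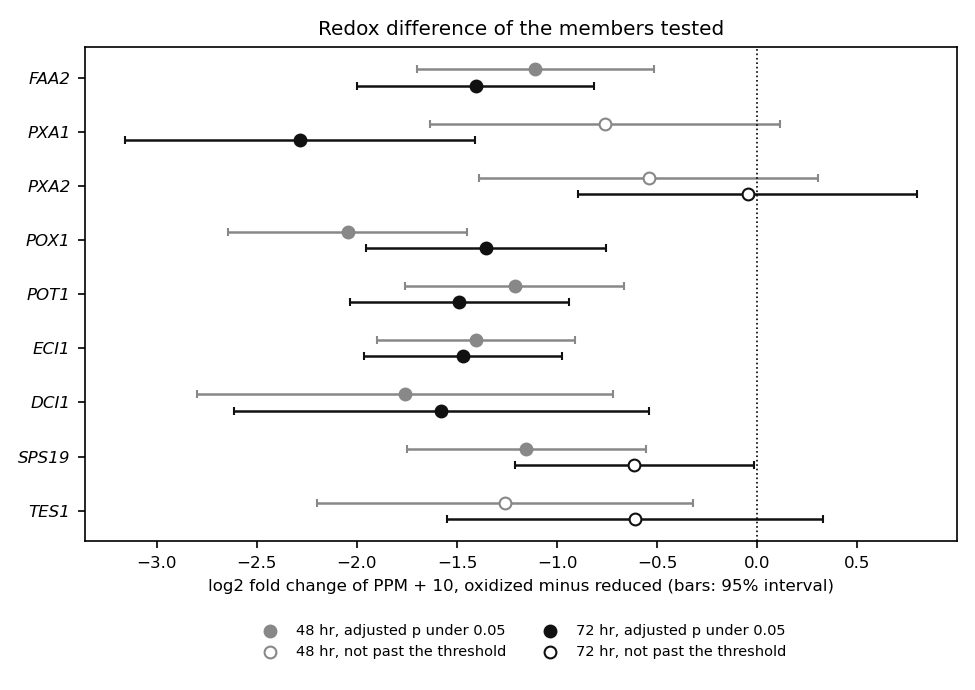
Log2 fold change of PPM + 10, oxidized minus reduced, for the 9 tested members at 48 hr (grey) and 72 hr (black), with 95% intervals and filled points for an adjusted p under 0.05. All points lie below 0, from -2.28 (PXA1, 72 hr) to -0.05 (PXA2, 72 hr), which turned to 0.02 with median-of-ratios scaling.

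By the values alone, 6 of the 10 genes (POX1, POT1, ECI1, DCI1, SPS19 and PXA2) had every oxidized library below every reduced library at 48 hr, where this held for 10.7% of all tested genes. At 72 hr it held for 7 of the 10 (POX1, POT1, ECI1, DCI1, FAA2, PXA1 and TES1), against 15.2% of all tested genes. PXA2 and TES1 are among them although they did not pass the test. DCI1 is counted at both ages although it passed the filter on low values only through the reduced libraries.

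No member was called between the ages. In reduced cells 0 of the 10 passed the threshold between 72 and 48 hr with limma (3 had an unadjusted p under 0.05), where 0.565% of all tested genes were called higher, 1.76% lower and 12.0% had such an unadjusted p. In oxidized cells 0 passed (4 unadjusted), where 0.168% were called higher, 0.272% lower and 9.90% had such an unadjusted p. For the difference between the 2 redox comparisons 0 passed (1 unadjusted, PXA1), where 0.754% were called higher, 0.0209% lower and 9.00% had such an unadjusted p. Of the 9 tested, 8 had a higher fitted value at 72 hr in reduced cells (7 with median-of-ratios scaling, under which POX1 turned) and 8 in oxidized cells, with 59.8% and 58.0% of all tested genes on that side and a median over all genes of 0.10 and 0.08. In reduced cells the values ran from -0.04 (PXA2) to 1.16 (PXA1, SE 0.44, limma adjusted p = 0.20), and in oxidized cells from -0.36 (PXA1) to 1.16 (SPS19, SE 0.30, limma adjusted p = 0.061). POT1, ECI1 and SPS19 had every 72 hr library above every 48 hr library in reduced cells (10.6% of all tested genes did), and ECI1 and SPS19 in oxidized cells (8.90%). SPS19 was called higher in oxidized cells at 72 hr without oxidized replicate 2 at 48 hr (1.32, limma adjusted p = 0.044) or without oxidized replicate 3 (1.46, limma adjusted p = 0.015).

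The members differed in how closely they tracked each other. Across the 12 libraries the Pearson correlation of log2(PPM + 10) was above 0 for all 36 pairs of tested members, with a median of 0.65 and a range from 0.29 (PXA1 with TES1) to 0.94. These points share the redox groups, and after the group means were taken out the median was 0.07, with 20 of 36 pairs above 0. Single pairs then ran from -0.70 (ECI1 with FAA2) to 0.93 (POX1 with ECI1). Against the mean of the other members, POT1 stood closest (0.95) and PXA2 (0.54) and TES1 (0.57) farthest.

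Among 4751 other tested genes, which leaves out 6 whose windows overlap that of a member and 10 with the same values as another gene, those whose pattern over the 12 libraries was most like the mean of the members were OLE1 (Pearson 0.98), IDP3 (0.96), GAP1 (0.96), MDH2 (0.96) and ICL1 (0.96). OLE1 encodes the fatty acid desaturase, IDP3 the peroxisomal isocitrate dehydrogenase, GAP1 the general amino acid permease, MDH2 the cytosolic malate dehydrogenase and ICL1 isocitrate lyase of the glyoxylate cycle. By Spearman's rank correlation REG2, a regulatory subunit of protein phosphatase, came first (0.99).

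Beta-oxidation depends on other peroxisomal proteins that return its cofactors, remove its peroxide and carry its products, and a list of 13 such genes was read beside it. Of these, 12 were tested, and 6 of the 13 at 48 hr and 8 of the 13 at 72 hr were lower in oxidized cells, with none higher, against 2.43% and 4.75% of all tested genes called lower. The median was -0.77 at 48 hr and -1.07 at 72 hr, against -0.07 and -0.11 over all tested genes. CTA1, the peroxisomal catalase that breaks down the peroxide made by Pox1, was at 144, 93.2 and 100 PPM in oxidized and 224, 285 and 308 PPM in reduced cells at 48 hr, and at 97.7, 101 and 136 against 333, 375 and 203 PPM at 72 hr. Its log2 fold change was -1.22 (SE 0.27, limma adjusted p = 0.0022) and -1.34 (SE 0.27, limma adjusted p = 2.2e-04), so the oxidase and the catalase were both lower in the oxidized cells.

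MDH3, which regenerates the NAD that Fox2 uses, was at -0.55 (SE 0.17, limma adjusted p = 0.0498) at 48 hr and -1.16 (SE 0.17, limma adjusted p = 4.9e-07) at 72 hr. The first of these lay at the threshold and was lost under 9 of the alternatives, among them without oxidized replicate 2 or 3 or reduced replicate 1 or 3 (-0.51 to -0.47). IDP3, which supplies the NADPH for Sps19, was at -1.28 (SE 0.25, limma adjusted p = 3.5e-04) and -0.97 (SE 0.25, limma adjusted p = 0.0047), the second lost without reduced replicate 2 (-0.86, limma adjusted p = 0.052). PEX11, needed for peroxisome division, was at -0.99 (SE 0.24, limma adjusted p = 0.0088) and -1.50 (SE 0.24, limma adjusted p = 5.9e-06), the first lost without oxidized replicate 3 (-0.84, limma adjusted p = 0.073) or reduced replicate 1 (-0.89, limma adjusted p = 0.083).

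CAT2, the carnitine acetyltransferase that passes acetyl units on, was at -1.14 (SE 0.20, limma adjusted p = 8.9e-05) and -1.65 (SE 0.20, limma adjusted p = 8.8e-09). CIT2, the peroxisomal citrate synthase, was at -0.64 (SE 0.16, limma adjusted p = 0.0088) and -0.84 (SE 0.16, limma adjusted p = 8.6e-05). PCD1, a coenzyme A diphosphatase, and LPX1, a peroxisomal lipase, passed at 72 hr (-1.55 and -1.28, limma adjusted p = 0.025 and 0.0081) and were at -1.19 and -0.89 at 48 hr (limma adjusted p = 0.19 and 0.17). The difference between the ages did not pass for either (limma adjusted p = 0.95 and 0.89). ANT1, NPY1, PCS60 and PEX5 did not pass at either age, and PEX7 was too low to test.

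**Figure D4:**
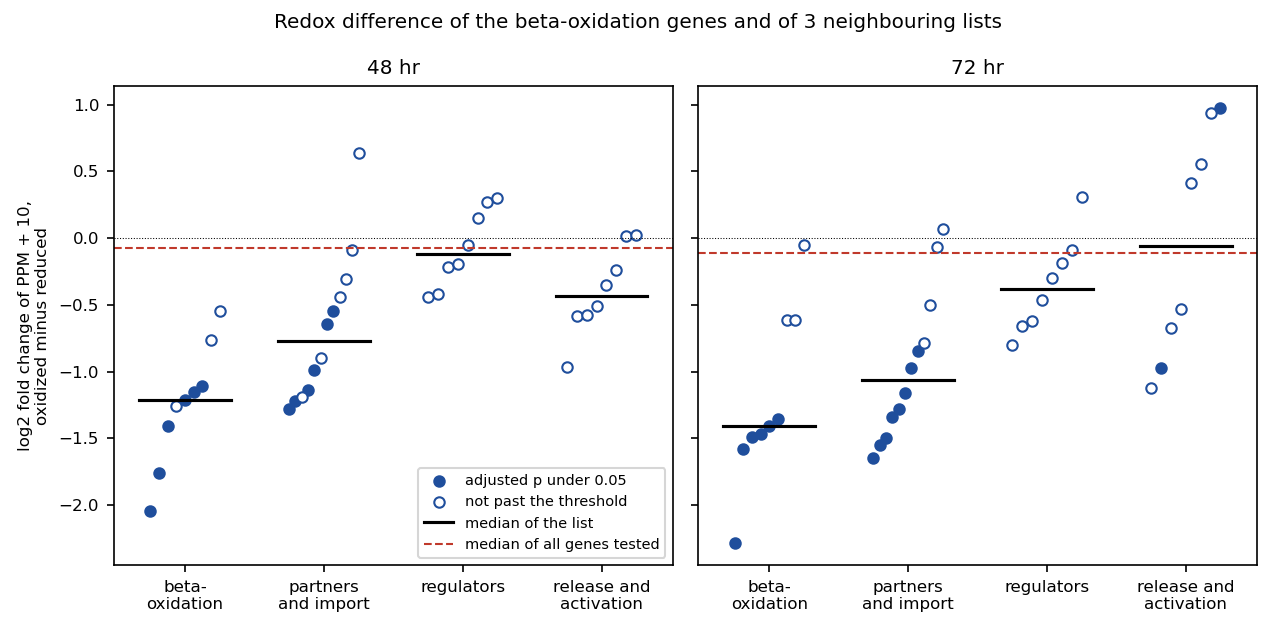
Log2 fold change of PPM + 10, oxidized minus reduced, at 48 hr and 72 hr for the tested genes of 4 lists, with filled points for an adjusted p under 0.05, black lines at each list's median and a dashed line at the median of all tested genes. Medians at 72 hr are -1.41 for beta-oxidation, -1.07 for the partners, -0.38 for the regulators and -0.06 for fatty acid release and activation.

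Of 8 regulators of the pathway, all tested, limma called 0 at either age, where 2.43% and 4.75% of all tested genes were called lower and 1.42% and 4.86% higher. An unadjusted p under 0.05 was reached by none at 48 hr and by ADR1 at 72 hr, against 14.6% and 20.4% of all tested genes. The medians were -0.12 and -0.38. OAF1, which encodes the fatty acid-binding subunit of the factor at the oleate response element, was at 0.27 (SE 0.48, limma adjusted p = 0.88) at 48 hr and -0.18 (SE 0.48, limma adjusted p = 0.88) at 72 hr. PIP2, its partner, was at -0.21 (SE 0.44, limma adjusted p = 0.89) and -0.09 (SE 0.44, limma adjusted p = 0.95). Their 95% intervals ran from -0.70 to 1.24 and -1.15 to 0.79 for OAF1, and from -1.10 to 0.67 and -0.97 to 0.80 for PIP2, and overlapped those of POT1 (-1.76 to -0.67 and -2.03 to -0.94). Transcript levels do not measure the activity of these factors.

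ADR1, the activator that acts when glucose is gone, was at 0.15 (SE 0.31, limma adjusted p = 0.89) at 48 hr and -0.80 (SE 0.31, limma adjusted p = 0.098) at 72 hr. It was at 83.7, 79.3 and 100 PPM in oxidized and 139, 198 and 147 PPM in reduced cells at 72 hr, with no overlap, as held on that side for 15.2% of all tested genes. OAF3, a repressor of the oleate response (-0.42 and -0.62, limma adjusted p = 0.79 and 0.54), and CAT8, an activator of gluconeogenic genes (0.30 and 0.31, limma adjusted p = 0.74 and 0.64), did not pass. At 72 hr the groups of CAT8 did not overlap either, with oxidized cells higher, and those of SNF4, of the same list, did not overlap with oxidized cells lower.

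Fatty acid release from storage lipid and activation outside the peroxisome gave a mixed picture. Of 10 genes 8 were tested, and none was called at 48 hr (1 had an unadjusted limma p under 0.05). At 72 hr 1 was lower and 1 higher in oxidized cells (4 had such an unadjusted p). The medians were -0.43 and -0.06. Over all tested genes 14.6% had such an unadjusted p at 48 hr and 20.4% at 72 hr. At 72 hr 4.75% of them were called lower and 4.86% higher. FAA1 and FAA4 encode the main long-chain acyl-CoA synthetases for fatty acids that enter the cell. FAA1 was at 391, 411 and 407 PPM in oxidized and 253, 120 and 259 PPM in reduced cells at 72 hr, a log2 fold change of 0.98 (SE 0.23, limma adjusted p = 0.0025), opposite to FAA2. FAA4 was at 363, 332 and 183 PPM in oxidized and 531, 580 and 575 PPM in reduced cells at 72 hr, a log2 fold change of -0.98 (SE 0.22, limma adjusted p = 0.0014). The call of FAA1 was lost without reduced replicate 2 at 72 hr (0.63, limma adjusted p = 0.10), and that of FAA4 without oxidized replicate 3 (-0.68, limma adjusted p = 0.070). FAA3 was at -0.97 and -0.67 (limma adjusted p = 0.39 and 0.52).

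Shares of the summed beta-oxidation reads show which members kept their place between the subpopulations. ECI1 made up 19.3% (exact 95% interval 14.5 to 24.8) of 244 reads in oxidized and 18.5% (15.9 to 21.3) of 811 in reduced cells at 48 hr, and 18.8% (15.0 to 22.9) of 400 and 22.0% (19.6 to 24.6) of 1126 at 72 hr. POT1 took 13.5% and 14.1% at 48 hr and 12.0% and 14.5% at 72 hr. At 48 hr the intervals of oxidized and reduced cells overlapped for every member. They were apart for SPS19 at 72 hr, which took 19.8% (16.0 to 24.0) in oxidized and 12.6% (10.7 to 14.7) in reduced cells, for PXA2 (6.0%, 3.9 to 8.8, against 2.6%, 1.7 to 3.7) and for PXA1 (3.8%, 2.1 to 6.1, against 8.4%, 6.9 to 10.2). These intervals cover counting error only, over the 3 libraries of a group pooled, and not the spread between libraries.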

How the data were processed

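RNA was primed with oligo-dT carrying a barcode and a molecular identifier and sequenced from the 3′ end. The authors demultiplexed with bcl2fastq 2.17, aligned to sacCer3 with bowtie2 at default parameters (its version is not given in the sources used here), removed duplicates by identifier, counted the reads that fell within 350 bp before or 200 bp after a termination site, and divided by the library total. The deposited values are PPM, recorded here under another unit because 553 genes stand in comma-separated blocks that an automatic unit check cannot read, so no count test was run. YCR013C and PYC1, broken over lines, were left out. From the PPM, log2(PPM + 10) was fitted for the 4776 genes whose mean over 12 libraries reached 20 PPM in R 4.3.3 with limma 3.58.1 (4 group means, eBayes with trend), and adjusted by Benjamini-Hochberg within each comparison at 0.05. The fit was also run on simulated counts with an assumed spread and with changed genes only at levels above that of DCI1. That run does not bear on calls at lower levels. Upstream sequence and window overlaps come from the RefSeq annotation of the sacCer3 assembly, with the coding end in place of the termination site. Python 3.11.15 (pandas 2.3.3, scipy 1.17.1, numpy 2.4.6, matplotlib 3.10.9) made the tables and figures.

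Named are all 10 members, CTA1, MDH3, IDP3, PEX11, OAF1, PIP2, ADR1, the 3 genes of each further list with the smallest p in the averaged redox comparison, the 5 genes most like the members, and genes whose windows overlap. Other named genes (CIT2, PCD1, LPX1, the genes not called, and those with an element in the closing section) were chosen after their values were seen. The members and lists were chosen with earlier results of these data known. Alternatives changed 1 choice each, namely the pseudocount (1 or 50 PPM), the filter (none, or 50 PPM), the scaling (median of ratios), a block for replicate number, a fit of only the 6 libraries compared, each library left out, and library weights, the last chosen after seeing the data.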

Additional observations from a re-analysis of the deposited data

How the results depend on the processing

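Leaving out 1 library of an age at a time, the members called lower in oxidized cells numbered 3 to 5 at 48 hr, with 3 without reduced replicate 1 and 3 without reduced replicate 3, against 6 with all libraries. The members called between ages in oxidized cells numbered 0 to 1, and 1 (SPS19) with a mean of at least 50 PPM. The other counts of members stayed within 1.5 times. POX1 and ECI1 at both ages, and POT1, FAA2 and PXA1 at 72 hr, passed under all 14 alternatives, and all 7 averaged calls under all of theirs. TES1 averaged over both ages passed under 6 of 19.

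The study's text describes isolating both subpopulations with the gates and repeating the process for biological replicates, which may pair oxidized with reduced libraries within an age. The labels do not say whether libraries of the same replicate number were sorted from the same culture, and the main fit treats all libraries as unpaired. Deviations of same-numbered libraries correlated at -0.06 to 0.04 over 18 pairs, within and across ages. Those of other-numbered libraries correlated at -0.05 to 0.05. At these read depths such values cannot exclude a pairing, and a pairing within each age was not fitted. With the replicate number as a block over both ages, 6 members were called at 48 hr, 6 at 72 hr and 8 averaged. The added one was TES1 (-0.94, limma adjusted p = 0.040), and MDH3 at 48 hr was lost (limma adjusted p = 0.061).

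Values near 0 changed sign. PXA2 at 72 hr was 0.02 (0.01846) with median-of-ratios scaling and -0.33 to 0.17 with a library left out. With a library left out, the ranges at 48 hr were -0.16 to 0.67 for OAF1, -0.54 to 0.00238 for PIP2, -0.13 to 0.37 for ADR1, -0.032 to 0.49 for CAT8 and -0.12 to 0.20 for FAA1. At 72 hr they were -0.61 to 0.30 for OAF1 and -0.34 to 0.15 for PIP2, and with age PXA1 in oxidized cells ran from -0.62 to 0.003575. None of these had passed the test. Depth limits FOX2, DCI1, PXA2 and TES1, each under 130 reads in all.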

Other observations

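Outside the members and the 4 genes that share a match with them, 100 genes of the annotation held the oleate response element in the 500 bases before the start codon, and 81 of them were tested. Among these are CTA1, MDH3, IDP3 and PEX11, already described. The set was formed after the data were seen and gets no test. At 48 hr 13 of the 81 were called lower in oxidized cells and 1 higher (16.0% lower, against 2.43% of all tested genes), and at 72 hr 11 lower and 3 higher (13.6% lower, against 4.75%). The medians were -0.29 and -0.21. Among those lower at both ages were CRC1, the mitochondrial carnitine carrier (-1.63, SE 0.23, and -1.39, SE 0.23) and YAT1, the outer carnitine acetyltransferase (-1.16, SE 0.31, and -1.41, SE 0.31). Also called lower at both ages, besides CTA1, MDH3, IDP3 and PEX11, were YLR307C-A (-1.79, SE 0.17, and -1.93, SE 0.17), ENA1 (-1.69, SE 0.30, and -1.56, SE 0.30), YDR034W-B (-1.13, SE 0.24, and -1.55, SE 0.24) and TPO4 (-0.98, SE 0.29, and -1.12, SE 0.29). HXK1, a hexokinase, carried the letters and was higher in oxidized cells at both ages (0.92, SE 0.15, and 1.27, SE 0.15, limma adjusted p = 1.5e-05 and 2.8e-09).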
